A study of Mus musculus with 20 samples.

Results

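The 8 genes Foxj1, Dnah11, Dnah12, Dynlrb2, Rsph1, Ak7, Ccdc153 and Tmem212 were followed in RNA of the adult mouse hippocampus. They were chosen as genes of the motile cilia of ependymal cells, by their symbols in the gene map, and are 8 of the 48709 genes counted. All 8 passed the filter on low counts, which left 19797 genes for testing. RNA-seq was done on 20 C57BL/6J mice, 5 in each of 4 groups: control female, nPM female, control male and nPM male. The dams of nPM mice inhaled nano-scale particulate matter of urban air (nPM), re-aerosolized, from gestational day 2, 5 h a day and 3 days a week, while control dams inhaled filtered air. The dose is given as 300 mg/m3 in the sample labels, and the study's methods have μg in place of mg. Ages were 17.71 to 18.29 weeks in females and 18.57 to 19.14 weeks in males, so sex and age cannot be told apart. The study's methods add that males had received EdU, a marker of dividing cells. Unless females also received it, EdU cannot be told apart from sex either. The methods also state that the right hemisphere was used and that the mice came from 5 litters per exposure. The labels do not tie a sample to a litter. With 5 females and 5 males per exposure, some samples of an exposure must share a litter. All samples were treated as independent here.

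Ependymal cells line the ventricles of the brain, next to the hippocampus, and beat bundles of motile cilia that move cerebrospinal fluid. A motile cilium is built on an axoneme of microtubules, on which outer and inner dynein arms supply force, and radial spokes and the central pair set the rhythm of bending. Foxj1 is the transcription factor that switches on this program. Epithelial cells of the choroid plexus, a secretory tissue inside the ventricles, also carry cilia. Ttr, used here for comparison, encodes transthyretin, the carrier of thyroid hormone and retinol that the choroid plexus epithelium secretes in large amounts.

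The 8 genes rose and fell together from sample to sample. Their levels, as CPM, counts scaled to a common library total, differed between the lowest and the highest sample by 4.46-fold for Dnah12 to 14.7-fold for Tmem212, and Ttr differed by 690-fold. Samples with more Ttr had more of each of the 8 genes, with Pearson r from 0.605 to 0.869. No member passed the threshold of the study, p under 0.005, in any comparison of nPM with control or of males with females. Of all genes, 0.0909% to 0.207% passed it for nPM and 31.1% for sex, so 0 of 8 for nPM is near the share of all genes. In bulk RNA, fewer ciliated cells in a sample and less RNA per cell cannot be told apart, and whether a given member's RNA came from ependymal cells was not tested.

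The median sample had 29468930 counted reads, and the range was 19092067 to 38663408, and no 2 samples of a group were alike within sampling noise. Marker genes of the hippocampus, 9 of 9 of which passed the filter, had summed levels of 876 to 1989 CPM. Their median correlation with the mean z-score of the 8 genes was 0.07, against -0.03 over all genes tested.

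The genes lie on 7 chromosomes, in build mm10. Foxj1 lies on chr11:116330704-116335399, minus strand. The dynein heavy chain genes Dnah11 and Dnah12 lie on chr12:117877982-118199043, minus strand, and chr14:26693274-26891703, plus strand. Dynlrb2, a dynein light chain gene of the roadblock type, lies on chr8:116504974-116515915, plus strand. Rsph1, a component of the radial spoke head, lies on chr17:31255019-31277356, minus strand. Ak7, an adenylate kinase of the axoneme, lies on chr12:105705982-105782447, plus strand. Ccdc153 and Tmem212, a coiled-coil and a transmembrane protein gene that mark ependymal cells, lie on chr9:44240677-44247306, plus strand, and chr3:27866066-27896368, minus strand. All are protein-coding. Dnah11 overlaps Cdca7l and Tmem212 overlaps the small nucleolar RNA gene Gm26040, each on the other strand. The strand setting of the counting is not given in the sources used here, so reads in these overlaps could not be assigned.

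Since the members moved together, their promoters are shown, for the 4 members whose RefSeq start site is that of the gene map. RefSeq promoter windows (GRCm38.p6, the mm10 build) were matched for 6 of 8 members, all but Foxj1 and Rsph1. The 250 bases before the start were searched on both strands for TGTTTAC and TGTTTGC, forms of the core that forkhead factors such as Foxj1 bind, and for GTTNCCA, a form of the site that Rfx factors bind. The motifs do not overlap each other in the windows of members. Each sequence below is the 150 bases before the start, 5′ to 3′ on the strand of the gene, with a match in capitals.
Ak7, chr12:105705832-105705981, plus strand: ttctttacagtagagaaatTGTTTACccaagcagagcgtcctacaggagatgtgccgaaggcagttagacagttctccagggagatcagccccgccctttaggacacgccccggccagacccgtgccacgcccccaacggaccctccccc
Tmem212, chr3:27896369-27896518, minus strand: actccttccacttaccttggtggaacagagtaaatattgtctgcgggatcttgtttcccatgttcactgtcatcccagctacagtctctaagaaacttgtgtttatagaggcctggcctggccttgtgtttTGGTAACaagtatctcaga
Ccdc153, chr9:44240527-44240676, plus strand: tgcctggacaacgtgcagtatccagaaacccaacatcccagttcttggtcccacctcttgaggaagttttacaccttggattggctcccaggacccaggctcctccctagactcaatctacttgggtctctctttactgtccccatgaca
Dnah11, chr12:118199044-118199193, minus strand: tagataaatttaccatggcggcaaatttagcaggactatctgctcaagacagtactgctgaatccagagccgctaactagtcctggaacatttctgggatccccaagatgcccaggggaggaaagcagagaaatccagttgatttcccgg
Of the 6 windows, 1 held TGTTTAC, that of Ak7, with its nearest base 125 bases from the start, and 3.17% of 32851 windows of all genes held it. TGTTTGC was in 0 of 6 windows and in 4.30% of all. GTTNCCA was in 1 of 6 windows, that of Tmem212, on the opposite strand with its nearest base 13 bases from the start, and in 14.0% of all. These are matches of letters, other forms of the sites were not searched, and binding was not measured.

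The regulator, Foxj1, had 4.71, 6.30, 9.30, 6.48 and 7.52 CPM in control females 1 to 5, and 17.0, 4.10, 5.87, 2.14 and 8.60 CPM in nPM females. In males it had 4.55, 19.8, 5.10, 19.1 and 12.7 CPM in controls, and 9.73, 12.3, 17.0, 6.94 and 8.29 CPM after nPM. Control males 2 and 4, nPM male 3 and nPM female 1 were high and nPM female 4 was low, and the exposure groups overlapped in each sex. The log2 SD of Foxj1 was 0.36 in control females and 1.12 in nPM females. In males the order was the other way, with 1.02 in controls and 0.50 after nPM.

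Of the dynein genes, Dnah12, a heavy chain of the inner arms, had 4.32, 5.58, 16.6, 9.27 and 12.3 CPM in control females and 11.9, 5.58, 5.52, 4.22 and 6.76 CPM in nPM females. It had 5.30, 14.8, 3.73, 8.07 and 7.76 CPM in control males and 6.26, 7.82, 11.7, 5.36 and 5.99 CPM in nPM males. Control female 3 was its highest sample of the 20, which held for no other member. Dnah11, a heavy chain of the outer arms, had 3.99 to 25.5 CPM, with the lowest value in control male 3 and the highest in nPM male 3. Dynlrb2 had 0.665 to 4.62 CPM, in the same 2 samples. Dynlrb2 has a paralog, Dynlrb1, and the handling of reads with several alignments is not given in the sources used here.

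Rsph1, of the radial spokes, had 2.18, 2.56, 3.21, 2.73 and 2.89 CPM in control females and 9.49, 1.34, 2.15, 1.26 and 3.48 CPM in nPM females. It had 2.87, 8.82, 2.33, 8.75 and 5.28 CPM in control males and 3.29, 6.50, 6.51, 3.04 and 2.96 CPM in nPM males. Control females were close to each other, and the nPM females lay on either side of them. The log2 SD of Rsph1 was 0.21 in control females and 1.19 in nPM females. For Dnah12 it was 0.80 and 0.56, in the other order. In males the SD of each member was higher in controls than after nPM, with 0.89 and 0.59 for Rsph1. These differences in spread were not tested. Ak7 had 1.92 CPM in nPM female 4 to 12.0 CPM in control male 2.

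Ccdc153 had 2.88, 4.66, 7.55, 5.48 and 5.29 CPM in control females and 7.31, 2.72, 3.54, 1.26 and 3.87 CPM in nPM females. It had 3.06, 12.4, 3.10, 7.45 and 5.89 CPM in control males and 7.42, 7.08, 10.02, 4.31 and 4.99 CPM in nPM males. In females, 4 of 5 nPM samples were under the control median of 5.29 CPM, and nPM female 1 was not. Tmem212 had from 0.438 CPM, or 8 counts, in nPM female 4 to 6.43 CPM in control male 2. Counting error is therefore largest, relative to the level, for Tmem212 and Dynlrb2 in the low samples.

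**Figure D1:**
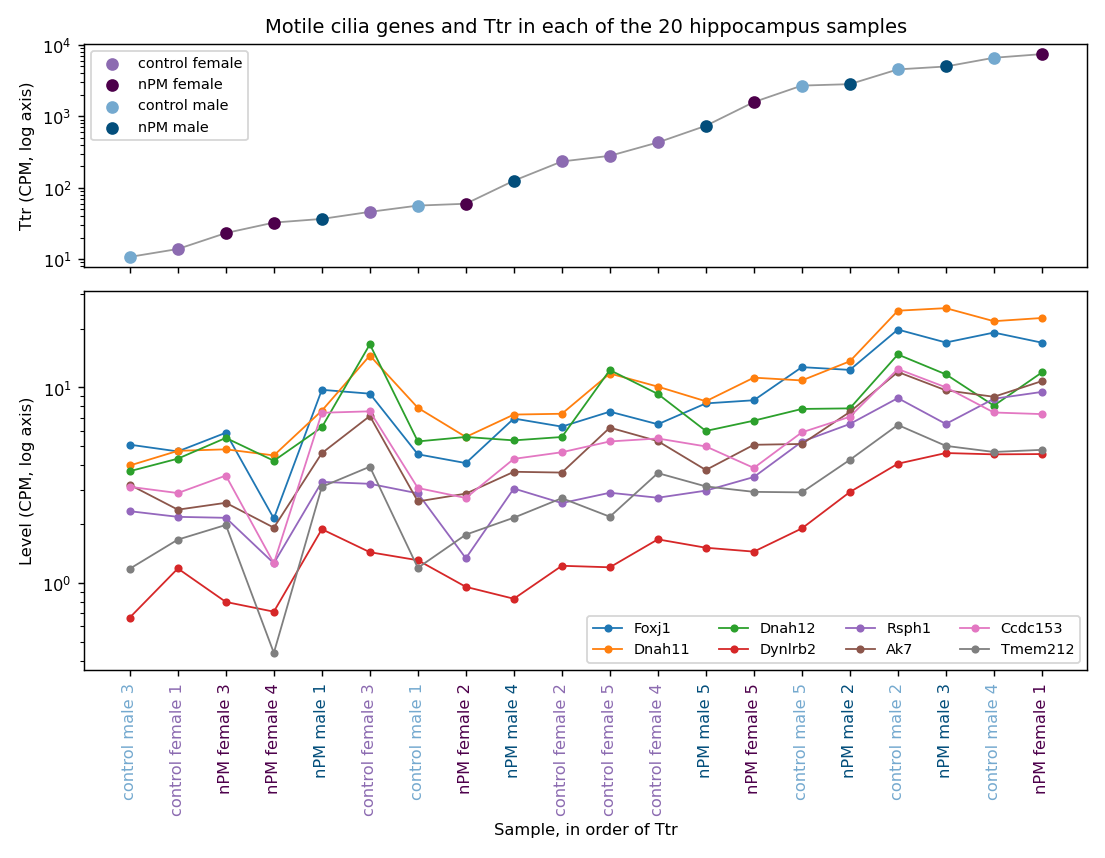
Levels of Ttr (top) and of the 8 motile cilia genes (bottom) in CPM on log axes, 1 point per sample, with the 20 samples in order of Ttr and coloured by group. Ttr runs from 10.7 to 7409 CPM, and the lines of the 8 genes rise to the right, with low values of the 8 genes at nPM female 4 and a high point of Dnah12 at control female 3.

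Levels of different genes were compared per length, in RPKM. Over the 20 samples the mean was 5.08 ± 2.49 RPKM (SD, n = 20) for Ccdc153, 4.20 ± 2.12 for Tmem212, 3.57 ± 2.00 for Foxj1, 3.55 ± 2.47 for Dynlrb2 and 3.51 ± 2.19 for Rsph1. Ak7 had 1.76 ± 0.965, Dnah11 0.792 ± 0.482 and Dnah12 0.716 ± 0.331 RPKM. Rsph1 was above Ak7, and Ak7 above Dnah11, in 20 of 20 samples. Ccdc153 was above Tmem212 in 18. Foxj1 was above Dynlrb2 in 11 samples, Dynlrb2 above Rsph1 in 9 and Dnah11 above Dnah12 in 11, so the order of these neighbours was within their spread. The long dynein heavy chain genes were thus lowest per length.

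The first comparison asked whether gestational nPM changed the genes in adulthood. With both sexes and sex as a covariate, 0 of 8 members passed p under 0.005 in limma-voom, where 0.141% of all genes passed, and 0 of 8 had p under 0.05, where 2.10% of all genes did. All 8 fitted log2 differences (nPM minus control) were under 0, from -0.19 for Dnah12 to -0.00 for Tmem212, with a median of -0.10 against -0.01 over all genes. Since the 8 genes moved together from sample to sample, their signs are not independent, and the number under 0 was 2 without control male 2. Dnah12 had the smallest p (-0.19, SE 0.26, n = 20 samples, p = 0.477, adjusted p = 0.9998). Its 95% interval was -0.73 to 0.35, and the widest of the 8, that of Dynlrb2, was -0.80 to 0.75.

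In females, 0 of 8 members passed p under 0.005, and 0.0909% of all genes did. The log2 difference was under 0 for 6 and over 0 for 2, with a median of -0.14 against 0.00 over all genes. The median was -0.55 without nPM female 1 and 0.05 without nPM female 4. The smallest p was that of Ccdc153 (-0.51, SE 0.37, n = 10 samples, p = 0.190, adjusted p = 0.9999), with a 95% interval from -1.31 to 0.29. Without nPM female 1, its difference was -0.82 (SE 0.34, adjusted p = 0.9999). In males, 0 of 8 members passed, and 0.207% of all genes did. The difference was under 0 for 6 and over 0 for 2, with a median of -0.05 against -0.00 over all genes. The median was -0.26 without control male 3 and 0.18 without control male 4. Rsph1 had the smallest p (-0.29, SE 0.40, n = 10 samples, p = 0.477, adjusted p = 0.964).

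Each member was also compared within each sex by a two-sided exact permutation test on log2 CPM, 5 against 5 samples, which cannot give a p under 0.00794. In all 16 tests the groups overlapped. The share of all genes whose groups overlap was not counted, so this is no result particular to the members. The smallest exact p was 0.222, for Ccdc153 in females, and every p adjusted over the 16 tests was 1. Without nPM female 1, the exact p of Ccdc153 in females was 0.0476.

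The interaction fit asked whether the nPM difference of males differed from that of females. It passed 0 of 8 members, and 0.217% of all genes. The male difference was above the female one for 5 members and below it for 3, with a median of 0.08 against 0.01 over all genes. With the edgeR and DESeq2 tests it was above for 3 and below for 5, with medians of -0.11 and -0.10, and the median was 0.48 without nPM female 1 and -0.15 without nPM male 3. Ccdc153 had the smallest p (0.71, SE 0.56, n = 20 samples, p = 0.219, adjusted p = 0.987).

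Levels of the choroid plexus epithelium genes varied with those of the members, with a median r of 0.832 to their mean z-score over 24 genes, of which 0 had a count of 0 in any sample. Their summed level without Ttr was 308 to 698 CPM in control females, 283 to 7337 in nPM females, 278 to 6382 in control males and 369 to 4807 in nPM males. Of 24 listed genes, 23 were higher in nPM than in control females (median log2 difference 0.91) and 23 were lower in nPM than in control males (median -0.45), and 0 of 24 passed p under 0.005 in either sex. With the mean log2 level of these genes as a covariate, 0 of 8 members passed p under 0.005 in any of the 5 fits. In that fit 8 of 8 members had a log2 difference under 0 in females, from -0.73 to -0.22, and 1 of 8 in males. The covariate varied with the members and itself differed with exposure, upward in females and downward in males. Adjusting for it therefore moves the members down in females and up in males, and moves the interaction with them. The signs of the 8 members are also not independent. Ccdc153 then had -0.73 in females (SE 0.30, n = 10 samples, p = 0.0304, adjusted p = 0.9995). In the interaction Ccdc153 had 0.96 (SE 0.39, n = 20 samples, p = 0.0228, adjusted p = 0.934), and Tmem212 had 0.99 (SE 0.41, p = 0.0252, adjusted p = 0.934).

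Between the sexes, with exposure as a covariate, 0 of 8 members passed p under 0.005, where 31.1% of all genes passed, and 2 of 8 had p under 0.05, where 48.4% of all genes did. The log2 difference (male minus female) was over 0 for 7 of 8 members, with a median of 0.45 against 0.02 over all genes. Rsph1 (0.73, SE 0.32, n = 20 samples, p = 0.0318, adjusted p = 0.0718) and Foxj1 (0.66, SE 0.32, p = 0.0492, adjusted p = 0.102) had the smallest p, and Dnah12 had -0.08 (SE 0.26, p = 0.758). Without nPM female 1, Rsph1 passed (0.96, SE 0.29, n = 19 samples, p = 0.00304, adjusted p = 0.0108). The choroid plexus list had a median log2 difference of 1.18, with 24 of 24 genes higher in males, and with that list as a covariate Rsph1 had 0.27 (SE 0.15, n = 20 samples, p = 0.0832) and Foxj1 0.29 (SE 0.16, p = 0.0730).

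**Figure D2:**
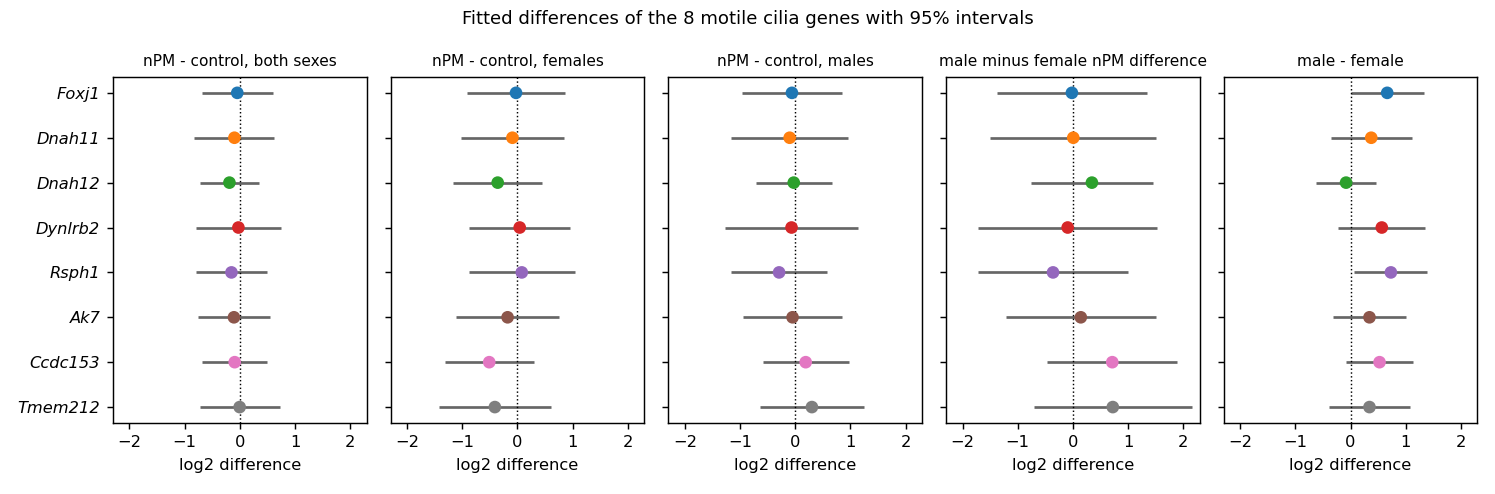
Log2 differences of the 8 genes in the 5 limma-voom fits, with points for the fitted difference and lines for its 95% interval. The intervals cross 0 in the 4 fits of exposure, and in the fit of sex those of Foxj1 and Rsph1 lie above 0.

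Variation between samples of a group was then set against that of Ttr. The SD within groups, on the log2 CPM scale, was 0.65 for Dnah12, 0.72 for Ccdc153, 0.80 for Rsph1, 0.81 for Ak7, 0.82 for Foxj1, 0.89 for Dnah11, 0.91 for Tmem212 and 0.92 for Dynlrb2. Counting alone would give 0.09 to 0.24. The median over all genes tested was 0.26, and the members lay between the 87.1 and the 94.9 percentile. Ttr had an SD of 3.34, which ranked 4 of the 19797 genes. The SD of Ttr was 3.64 times that of Dynlrb2 and 5.14 times that of Dnah12, and the median ratio of member to Ttr was 0.244. With the median SD of the other choroid plexus genes in place of Ttr, the ratio was 0.405. The variance of each of the 8 members was lower than that of Ttr (two-sided test with 100000 permutations within samples, p adjusted over the 8 members from 1.33e-05 to 3e-05). The smallest p these permutations can give is 1e-05, and the 8 tests share their samples. Since the SD of Ttr ranked 4 of 19797 genes, most genes would vary less than Ttr. These p-values therefore show nothing particular to the members.

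Ttr had 13.9, 233, 45.9, 430 and 279 CPM in control females and 7409, 59.6, 23.2, 32.5 and 1579 CPM in nPM females. It had 56.2, 4528, 10.7, 6587 and 2687 CPM in control males and 36.6, 2815, 4973, 125 and 736 CPM in nPM males. The groups overlapped, and Ttr did not pass in any of the 5 fits (nPM minus control with both sexes 0.49, SE 1.31, n = 20 samples, p = 0.714).

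**Figure D3:**
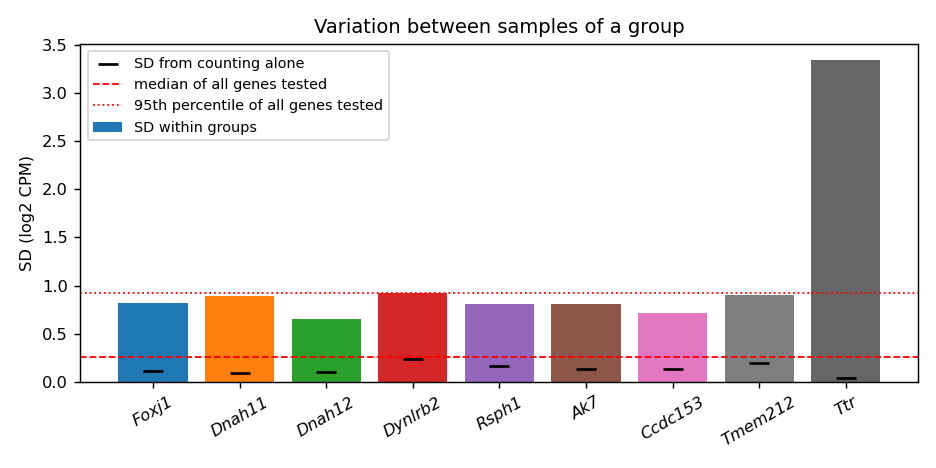
Bars give the SD within groups of log2 CPM for the 8 genes and Ttr over 20 samples, short black lines the SD that counting alone would give, and red lines the median and the 95th percentile over all genes tested. The bars of the 8 genes lie between 0.65 and 0.92, and that of Ttr is at 3.34.

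The level of each member followed that of Ttr. Over 20 samples Pearson r with log2 Ttr was 0.869 for Dnah11, 0.852 for Dynlrb2, 0.848 for Rsph1, 0.818 for Foxj1, 0.815 for Ak7, 0.736 for Tmem212, 0.675 for Ccdc153 and 0.605 for Dnah12. Spearman rho was 0.660 to 0.856. In 100000 permutations the two-sided p for r was 1e-05 to 0.00572, adjusted over the 8 members 2.67e-05 to 0.00572, and for rho the adjusted p was 4e-05 to 0.00208. Over all other genes the median r was -0.03, and 5.55% of them had an r as high as that of Dnah12 or higher. The median r of the members was 0.816. Without nPM female 1 and control male 4, the samples farthest from the median of Ttr, r was 0.580 to 0.828. Within females (n = 10) r was 0.472 to 0.816, and within males (n = 10) 0.747 to 0.904. The values of Ttr formed no separate clusters, as the widest gap was 11.7% of their range. For 1 unit more of log2 Ttr, the fitted log2 level of a member was higher by 0.12 (SE 0.04) for Dnah12 to 0.24 (SE 0.03) for Dynlrb2.

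Ordered by the mean z-score of the 8 genes, control male 2, nPM female 1, nPM male 3, control male 4 and nPM male 2 came first, and these 5 samples were also the 5 with the most Ttr. nPM female 4 came last, with all 8 members among their 5 lowest values. This sample also had the fewest counted reads of all samples, 19092067. Some samples parted from Ttr. Control female 3 ranked 6 by the cilia genes and 15 by Ttr, and nPM male 1 ranked 10 and 16.

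Among themselves the members had a median pairwise r of 0.876 over 28 pairs (n = 20 samples). The highest was 0.953, for Dnah11 and Ak7, followed by Foxj1 and Rsph1 at 0.949 and Ccdc153 and Tmem212 at 0.946. The lowest was 0.643, for Rsph1 and Dnah12. The first principal component of the 8 genes held 87.4% of their variance and the second 5.81%, with Dnah12 (loading -0.77) and Rsph1 (0.43) at its ends. All points share libraries and their depths. The level of each member relative to the mean of the other 7, a measure chosen after the data had been seen, was then set against Ttr. For Dnah12 it was lower in samples with more Ttr (r = -0.617, permutation p = 0.00407, adjusted over 8 p = 0.0326, and Spearman rho = -0.674, adjusted p = 0.0142). Without the 2 farthest samples r was -0.514. For the other 7 members the adjusted p of r was 0.135 to 0.995. The lowest was that of Ccdc153, which went the same way as Dnah12 (r = -0.478, permutation p = 0.0338). Within males r was -0.681 for Ccdc153 and -0.667 for Dnah12. Dnah12 also had the lowest slope on Ttr of the 8, from which a negative r of this measure follows. The 8 relative levels are built from each other, so these values describe that pattern and are no separate test of it.

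The non-member genes most like the members, by Pearson r with their mean z-score over 20 samples, were 2410004P03Rik (0.971), Ubxn10 (0.969), Ttc21a (0.966), Rarres2 (0.965), Dnah6 (0.962), Armc3 (0.958), Hydin (0.953), Lrrc23 (0.952), Ccdc146 (0.951) and Cfap43 (0.946). Dnah6 encodes a dynein heavy chain, Hydin a protein of the central pair and Rarres2 the secreted protein chemerin. Their r with Ttr was 0.752 to 0.891.

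Other genes of motile cilia were taken from 6 lists of 80 genes, of which 76 were tested. Their median r with the members was 0.785, 59 of 76 were over 0.5, and 40 were among the 500 genes of 19789 most like the members. By role, the median was 0.757 for 6 transcription factor genes of cilia, 0.717 for 13 dynein arm genes, 0.745 for 12 genes of dynein docking and assembly, 0.787 for 12 genes of radial spokes and the central pair and 0.807 for 26 other genes of the motile axoneme. Of 7 genes of the nexin-dynein regulatory complex and the ruler that spaces the dyneins, the median was 0.10. There Ccdc40 had 0.892 and Iqcg 0.812, while Ccdc39, the partner of Ccdc40 in the ruler, had -0.08. Drc1 had 0.21, Ccdc65 0.10, Tcte1 -0.30 and Gas8 -0.50. The mean count was 86 for Ccdc40 and 1141 for Ccdc39.

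For 25 genes of primary cilia and of intraflagellar transport, the traffic that builds cilia, the median r with the members was -0.05, against -0.03 over all genes. The values ran from -0.56 to 0.62, with Ift46 (0.618) and Ift122 (0.580) over 0.5, named after their values were seen. Their median SD within groups was 0.13, against 0.55 for the 76 motile cilia genes. The sets were not matched for count. Mean counts ran from 541 to 5148 in the first and from 11.1 to 7192 in the second, where many were lower. SD depends on count, as the median SD of genes with counts like Dynlrb2 was 0.39, and like Dnah11 0.20. Of 24 choroid plexus genes, 22 were among the 500. The median was 0.406 for 9 genes of meningeal fibroblasts, 0.195 for 9 of the thalamus, 0.419 for 9 of the striatum and 0.109 for 7 of astrocytes. These correlations are descriptions across genes of the same libraries.

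**Figure D4:**
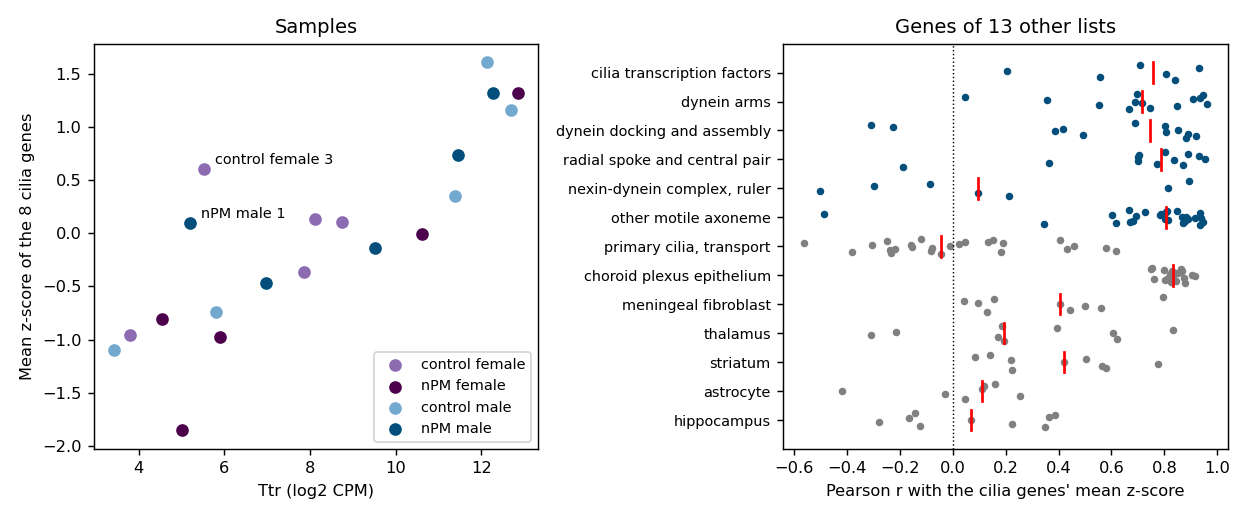
Left, the mean z-score of the 8 cilia genes against log2 CPM of Ttr, 1 point per sample, coloured by group, with control female 3 and nPM male 1 above the trend. Right, Pearson r with that z-score for each gene of 13 lists, with blue points for the 6 motile cilia lists, grey for the others, and red lines for medians. Ttr is left out of the choroid plexus list, whose points lie from 0.75 upward.

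In the 4 fits of exposure, 1 gene of the 6 motile cilia lists passed p under 0.005. Of all genes, 0.0909% to 0.217% passed in these fits, and 0.207% in males. The 1 gene was Tcte1, a component of the nexin-dynein regulatory complex, in males (log2 difference -0.69, SE 0.17, n = 10 samples, p = 0.00205, adjusted p = 0.963). None of the genes of the other 7 lists passed in these fits. With both sexes, the median log2 difference of the lists was 0.04 for the transcription factors, -0.07 for dynein arms, -0.05 for docking and assembly, -0.11 for radial spokes and the central pair, -0.13 for the nexin-dynein complex and -0.11 for the other axoneme genes, against -0.01 over all genes. In males the same medians were -0.05, -0.09, -0.22, -0.24, -0.19 and -0.24, and in females 0.19, -0.03, 0.05, 0.12, 0.02 and 0.13, against -0.14 for the members. Of the 26 other axoneme genes, 21 were lower after nPM in males and 18 were higher in females. Many of these genes vary together, so their signs are not independent. The choroid plexus list had the same split, with 23 of 24 genes lower in males and 23 higher in females.

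Between the sexes, where 31.1% of all genes passed, 2 of the 76 motile cilia genes did, both lower in males: Spag1, a factor of dynein arm assembly (-0.19, SE 0.06, n = 20 samples, p = 0.00409, adjusted p = 0.0137), and Gas8, of the nexin-dynein complex (-0.24, SE 0.07, p = 0.00426, adjusted p = 0.0141). Of 25 primary cilia and transport genes, 3 were higher and 3 lower, with Ift20 (0.25), Ift172 (-0.29) and Ttc21b (-0.28) the smallest in p. Of 7 astrocyte genes, 3 were higher in males, Gja1 (0.29), Aqp4 (0.44) and Aldoc (0.18). 0 genes of the choroid plexus, meningeal, thalamus, striatum and hippocampus lists passed.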

How the data were processed

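Hippocampal RNA was measured in 20 samples, grouped by the sample labels. The authors depleted ribosomal RNA (RiboZero Gold), ran HISAT2 against mm10 and featureCounts 1.5.0-p3 on Gencode M11. The deposited table holds raw counts for 48709 genes, and a second one the mean RPKM of each gene over all samples with its length. The deposited RPKM mean differed from that recomputed from the counts by at most 4.91e-11. The strand setting and the handling of multiple alignments are not given in the sources used here.

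From the counts, TMM factors (0.958 to 1.06, edgeR 4.0.16) and CPM were computed. Genes were kept by filterByExpr (minimum count 10, minimum total 15). limma-voom (limma 3.58.1, R 4.3.3, offset 0.5 counts) was fitted on all 19797 genes, with p under 0.005 as in the study and Benjamini-Hochberg adjusted p over all genes. Each fit was first tested on simulated counts with known changes. No member was at 0 counts in any sample. Intervals are for the fitted difference and rest on the spread between these samples. No fit took litter into account. Where samples shared a litter, p-values for exposure are too small. For sex and the interaction, the direction of that error is not known. Other settings tried were edgeR's quasi-likelihood fit, the Wald test of DESeq2 1.42.0, RLE factors, a looser filter, each sample left out, a replicate block, age and choroid plexus covariates and 1 fit of the 4 groups. Correlations, principal components and permutation tests were computed with Python 3.11.15, numpy 2.4.6 and scipy 1.17.1.

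The members and the lists were chosen with earlier results of these data known. Named were all members and Ttr, the 10 other genes most like the members, and of each list at most 3 genes per fit with p under 0.005. Genes named for contrast within a list (Ift46, Ift122 and those of the nexin-dynein list) were chosen after their values were seen.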

Additional observations from a re-analysis of the deposited data

How the results depend on the processing

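In every other setting run on all samples, 0 of 8 members passed p under 0.005 in each of the 5 fits, the edgeR and DESeq2 tests, the replicate block and, in the 4 fits of exposure, the age covariate included. Same-numbered samples did not deviate together (r from -0.364 to 0.157 over 10 pairs, with 0 of 10 closest to its own number), and the replicate block (0 members called) was used only as an alternative. With a sample left out, the count stayed at 0 in the 4 fits of exposure and was 0 to 1 in the fit of sex, with 1 without nPM female 1. The number of exact permutation tests with p under 0.05, of 16, was 0 for other scalings chosen after the data were seen, and 0 to 1 with a sample left out (smallest exact p = 0.0476, without nPM female 1). The number of members lower after nPM moved with single samples. It was 2 to 8 with both sexes (2 without control male 2, 3 without control male 4), 1 to 7 in males (1 without control male 2, control male 4 or nPM male 4) and 2 to 8 in females (2 without nPM female 4). In the interaction the number under 0 was 0 to 5, with 0 without nPM female 1. No direction of exposure is stated for the 8 genes. With the edgeR test, 6 of 8 were lower with both sexes.

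The median ratio of member SD to Ttr SD was 0.405 with the median SD of the other choroid plexus genes in place of Ttr, against 0.244. It was 0.224 to 0.263 with a sample left out. The median r with Ttr was 0.793 to 0.853 and the median pairwise r 0.858 to 0.894 when a sample was left out. Counting error limits Tmem212 and Dynlrb2 most, and 5 samples a group cannot give an exact p under 0.00794.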
